A study of Gallus gallus with 48 samples.

Results

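Anti-inflammatory glucocorticoid targets are genes through which glucocorticoid hormones restrain inflammatory signalling in other tissues, and 6 of them were followed here in pituitary cells of the chicken embryo: NFKBIA, BCL6, CEBPB, ANXA1, TGM2 and CRISPLD2. They were chosen by name, with earlier results of these data known. Their probes were those carrying one of these symbols in the array's probe annotation, 11 probes in all. All 6 were among the 5632 named genes that could be tested, out of 6428 named genes on the array. The cells came from the anterior pituitary gland at embryonic day 11, were dispersed with trypsin, and attached for 1 h in serum-free medium with insulin and transferrin. Corticosterone (CORT, the main glucocorticoid of birds) was then added at 1e-09 M for 1.5, 3, 6, 12 or 24 h, or not at all. One arm was first exposed for 1.5 h to 10 micrograms per ml of cycloheximide (CHX), which blocks translation, and the other was not. This gave 12 groups of 4 samples, 48 in all. The group with neither agent is called untreated and the group with CHX and no CORT is called CHX alone. The labels call the replicates biological without saying whether they were separate dispersions, so the spread behind the p-values is that between these samples and may be technical. Whether CHX was removed before CORT is not stated. In each arm the only group without CORT was the one at 0 h, so the duration of CORT and the time in culture cannot be told apart. In the CHX arm the time since CHX was added grew with both. A difference from CHX alone therefore cannot be assigned to CORT rather than to that time. As the pretreatment came first, the CHX arm was 1.5 h longer in culture at equal CORT duration, unless the other arm was held for that time before CORT.

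The glucocorticoid receptor is a hormone-activated transcription factor that raises some genes by binding near them and lowers inflammatory genes largely by interfering with NF-kB and AP-1. NFKBIA encodes IkB-alpha, the protein that binds NF-kB and holds it in the cytoplasm, and NF-kB in turn induces NFKBIA. In mammals, ANXA1 made by folliculostellate cells of the anterior pituitary carries part of the feedback of glucocorticoids on corticotrophs. When translation is blocked, an mRNA can still change if its transcription or decay needs no newly made protein, which is the usual reason for adding CHX.

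The 2-colour cDNA arrays carried the sample in Cy3 beside a pool of RNA from all 48 samples in Cy5, so every level below is a log2 ratio to that pool. A gene at 0 equals the pool, and levels of different genes cannot be set against each other on this scale. Between 14609 and 16840 of 19200 probes had a value on an array. Array pairs correlated between -0.76 and 0.87 over all probes, and pairs within a group between -0.69 and 0.79, so single arrays differed widely within groups. One axis held 51.7% of the spread within groups. The direction of the ratio is not stated in the sources used here and was read as sample over pool. That reading is likely, since FKBP5, which glucocorticoids induce in most tissues, stood above the matching 0 h group in 4 of 4 samples in all 10 comparisons with CORT, by 0.62 to 1.82. With the opposite sign, every direction given here would turn. A gene was called changed where the adjusted p of limma's moderated test (Benjamini-Hochberg over 11195 features) was under 0.05.

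NFKBIA and BCL6 changed, both upward and each time in comparisons that include CHX-treated cells, while CEBPB, ANXA1, TGM2 and CRISPLD2 passed the threshold in none of the 16 pairwise comparisons. NFKBIA was higher in CHX-treated cells at each of the 5 CORT durations, by 1.14 to 2.30 on the log2 scale. BCL6 was higher at 6, 12 and 24 h of CORT after CHX than in CHX alone, by 0.90, 0.76 and 0.87. Without CHX, 0 of the 6 genes were called at any duration of CORT, where limma called 0%, 0.0268%, 0.0983%, 0.0179% and 0.0179% of features from 1.5 to 24 h. None of the 6 had an unadjusted p under 0.05 in those 5 comparisons, and none lay wholly above or below untreated, as 3.05%, 1.06%, 1.3%, 1.45% and 1.61% of features did.

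**Figure D1:**
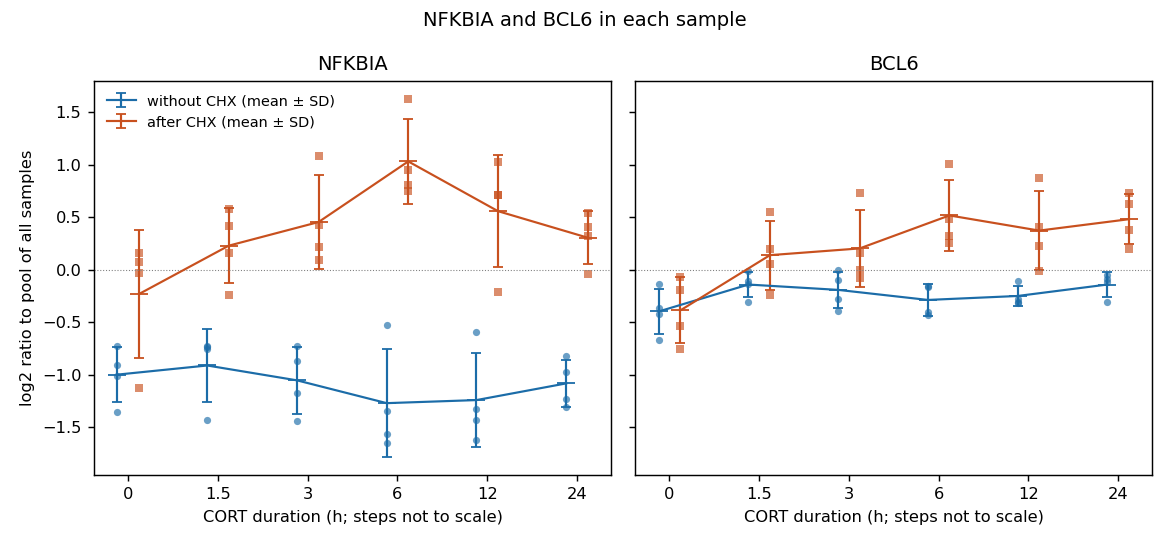
Log2 ratio to the pool of NFKBIA and BCL6 in each of 48 samples, by CORT duration in hours (steps not to scale), without CHX (blue circles) and after CHX (orange squares). Points are samples and lines join group means with bars of 1 SD (n = 4). NFKBIA without CHX stayed near -1 and after CHX peaked at 6 h with a mean of 1.03, and BCL6 stood near -0.4 at 0 h in both arms, with means between 0.14 and 0.52 in the 5 groups with CORT after CHX.

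NFKBIA was read by 1 probe, measured on all 48 arrays. In untreated cells its log2 ratios were -0.90, -1.35, -0.72 and -1.02. After CORT without CHX they were -0.75, -0.73, -1.43 and -0.74 at 1.5 h and -0.73, -1.44, -1.17 and -0.87 at 3 h. At 6 h they were -1.35, -1.56, -1.64 and -0.53. These groups all overlapped with the untreated one. The lowest and the highest of all samples without CHX, -1.64 and -0.53, were both at 6 h. At 12 h the values were -0.59, -1.43, -1.62 and -1.33, and at 24 h they were -0.82, -0.97, -1.30 and -1.23. The fitted differences from untreated were 0.09, -0.05, -0.27, -0.24 and -0.08 from 1.5 h to 24 h (SE 0.28 each). Their 95% intervals reached from -0.83 at the lowest to 0.65 at the highest, so rises of NFKBIA above 0.65 lie outside all of them while smaller ones do not.

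With CHX alone, NFKBIA stood at -0.03, 0.16, -1.13 and 0.08, so 3 samples lay above every untreated one and replicate 3 lay among them. The difference of 0.77 (SE 0.28, 95% interval 0.21 to 1.33) did not pass the threshold (limma adjusted p = 1). That comparison called 0.0179% of features and none of the 6 genes. NFKBIA was the only one of the 6 with an unadjusted p under 0.05 there, and none of the 6 lay wholly outside untreated, as 1.21% of features did.

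In the groups with CORT after CHX, every mean of NFKBIA lay above that of CHX alone. The log2 ratios were -0.24, 0.16, 0.42 and 0.58 at 1.5 h and 0.09, 0.21, 1.09 and 0.42 at 3 h. They reached 0.81, 0.75, 1.62 and 0.94 at 6 h, and this was the one group that lay wholly above CHX alone. At 12 h they were 0.71, -0.21, 1.02 and 0.71, and at 24 h they were -0.05, 0.32, 0.40 and 0.54. At 6 h the difference from CHX alone was 1.26 (SE 0.28, a 2.4-fold difference, limma adjusted p = 0.00972). The other durations gave 0.46, 0.68, 0.79 and 0.54 at 1.5, 3, 12 and 24 h, with adjusted p from 0.19 to 1, and were not called. The call at 6 h rests in part on replicate 3, the lowest of CHX alone and the highest at 6 h. It was 0.96 (limma adjusted p = 0.116) without that array of CHX alone, 1.06 (adjusted p = 0.0983) without that array at 6 h, and 0.76 (adjusted p = 0.463) without all arrays numbered 3.

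Set against CORT of equal duration without CHX, NFKBIA was higher in 4 of 4 samples at every duration and no pair of groups overlapped. The differences were 1.14, 1.51, 2.30, 1.80 and 1.39 from 1.5 to 24 h, each with an SE of 0.28. Their limma adjusted p-values were 0.0473, 0.00861, 3.22e-06, 0.000524 and 0.00176 in the same order. The difference at 6 h was a 4.92-fold one, and by p it ranked 1 among the 11195 features. Over all features, the shares called were 0.393%, 0.161%, 3.92%, 1.41% and 4.98% from 1.5 to 24 h. Wholly higher groups were found for 2.56%, 2.16%, 6.49%, 2.64% and 4.84% of features. For NFKBIA, the call at 1.5 h was near the threshold and was lost in 39 of 62 alternative settings, while the call at 6 h was kept in all 62. At 3 h it was lost without replicate 2 of CORT 3 h (1.38, adjusted p = 0.0934) and without replicate 3 of CHX then CORT 3 h (1.29, adjusted p = 0.182).

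Over all durations, every group mean of NFKBIA after CHX lay above every group mean without it, the nearest being -0.23 for CHX alone and -0.91 for CORT at 1.5 h. The single samples overlapped through replicate 3 of CHX alone, at -1.13, while the highest sample without CHX was -0.53. The mean of the 6 CHX groups exceeded that of the 6 groups without CHX by 1.48 (SE 0.11, limma adjusted p = 4.33e-12), a comparison added after the design was fixed, which called 20.1% of features. NFKBIA ranked 1 in it by p. Averaged over the 5 durations, NFKBIA was 0.75 above CHX alone (SE 0.22, limma adjusted p = 0.0788), which was not called. Without replicate 3 of CHX alone this was 0.45 (adjusted p = 0.8), and the differences of NFKBIA at 1.5, 3, 12 and 24 h were 0.16, 0.38, 0.49 and 0.24. With the replicate block it was called (adjusted p = 0.0342). Whether the difference from the 0 h group, called the response here, was larger after CHX was a separate test. In it, CORT and the time since CHX cannot be told apart. The response at 6 h was larger by 1.53 (SE 0.39, 95% interval 0.74 to 2.32), but its adjusted p was 0.295 where 0.00893% of features were called, and the F-test over the 5 durations gave adjusted p = 0.695. A larger response of NFKBIA to CORT after CHX was thus not shown over the threshold. These comparisons share groups: all 5 durations of an arm are set against the same 4 samples at 0 h.

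BCL6 is a transcriptional repressor of the BTB zinc finger family that opposes inflammatory gene programs in macrophages and lymphocytes. It had 3 probes on the array, of which 2 were measured on all 48 arrays and are averaged here. The third had 21 values, all exactly 0, and was taken as not measured. In untreated cells BCL6 stood at -0.67, -0.36, -0.14 and -0.42, and with CHX alone at -0.54, -0.07, -0.75 and -0.19. The groups overlapped throughout and their means differed by 0.01 (SE 0.18).

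CORT without CHX gave BCL6 differences of 0.26, 0.21, 0.11, 0.15 and 0.26 from 1.5 to 24 h (SE 0.18 each). That SE comes from the spread of all 12 groups, and the spread of BCL6 was unequal. Its SDs ran from 0.10 to 0.22 in the groups without CHX and from 0.24 to 0.37 in those with CHX. For BCL6 the shared SE is therefore wide for the arm without CHX and narrow for the CHX arm. None was called, and the highest upper 95% limit was 0.62. At 24 h, for instance, the values were -0.31, -0.05, -0.12 and -0.09, of which 4 of 4 lay above the untreated mean, yet the groups overlapped.

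With CORT after CHX, BCL6 was higher than in CHX alone. At 6 h the values were 0.26, 0.32, 1.01 and 0.48, at 12 h they were 0.41, -0.01, 0.87 and 0.22, and at 24 h they were 0.37, 0.62, 0.20 and 0.73. All 3 groups lay wholly above CHX alone. The differences were 0.90, 0.76 and 0.87 at 6, 12 and 24 h (SE 0.18 each), with limma adjusted p-values of 0.00309, 0.024 and 0.00314. The one at 6 h was a 1.87-fold difference. These comparisons with CHX alone called 0.0179%, 0.0268%, 1.13%, 1.13% and 2.3% of features from 1.5 to 24 h, and wholly higher groups were found for 0.429%, 1.67%, 3.65%, 2.38% and 2.72%. At 1.5 h (0.53, adjusted p = 1) and 3 h (0.59, adjusted p = 0.418) BCL6 was not called, although both differences had an unadjusted p under 0.05. At 3 h it was called with array weights (0.48, adjusted p = 0.0493) and with the axis of spread as a covariate (0.59, adjusted p = 0.0362). The covariate left that difference unchanged and acted only on the spread. The call at 12 h was lost when any of 4 single arrays was left out, namely replicate 1 or 3 of CHX alone (adjusted p = 0.0578 and 0.159) and replicate 1 or 3 of the 12 h group (adjusted p = 0.0766 and 0.201).

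Averaged over the 5 durations, BCL6 was 0.73 above CHX alone (SE 0.14, limma adjusted p = 0.00221), against a background of 0.947% of features called. Without replicate 3 of CHX alone this was 0.61 (adjusted p = 0.0916). Averaged over the durations without CHX it was 0.20 above untreated (SE 0.14, adjusted p = 1), where 0.0804% of features were called. The F-test of any change over time after CHX called BCL6 (adjusted p = 0.0105) and none of the other 5, against 1.8% of all features. With the replicate number as a block it called NFKBIA (adjusted p = 0.0346) and TGM2 (adjusted p = 0.0426) as well, and as a random block too (adjusted p = 0.0246 and 0.0449). Without CHX the same test called 0.0268% of features and none of the 6.

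Against CORT of equal duration without CHX, BCL6 differed by 0.28, 0.39, 0.80, 0.62 and 0.62 from 1.5 to 24 h. The differences at 6 h (limma adjusted p = 0.00508) and 24 h (adjusted p = 0.0309) were called, and that at 12 h was not (adjusted p = 0.0652), although those groups did not overlap either. The call at 6 h was lost without replicate 3 of CHX then CORT 6 h (0.64, adjusted p = 0.0546). In the mean of the 6 groups of each arm, BCL6 was 0.46 higher with CHX (SE 0.07, adjusted p = 1.06e-05). The call at 24 h was lost without any single array of CORT 24 h, without replicate 2 or 4 of CHX then CORT 24 h, and where exact zeros were kept as values (0.47, adjusted p = 0.0974). The difference in response to CORT between the arms at 6 h was 0.79 (SE 0.25, limma adjusted p = 0.468), so a larger response of BCL6 after CHX was not shown over the threshold. 

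**Figure D2:**
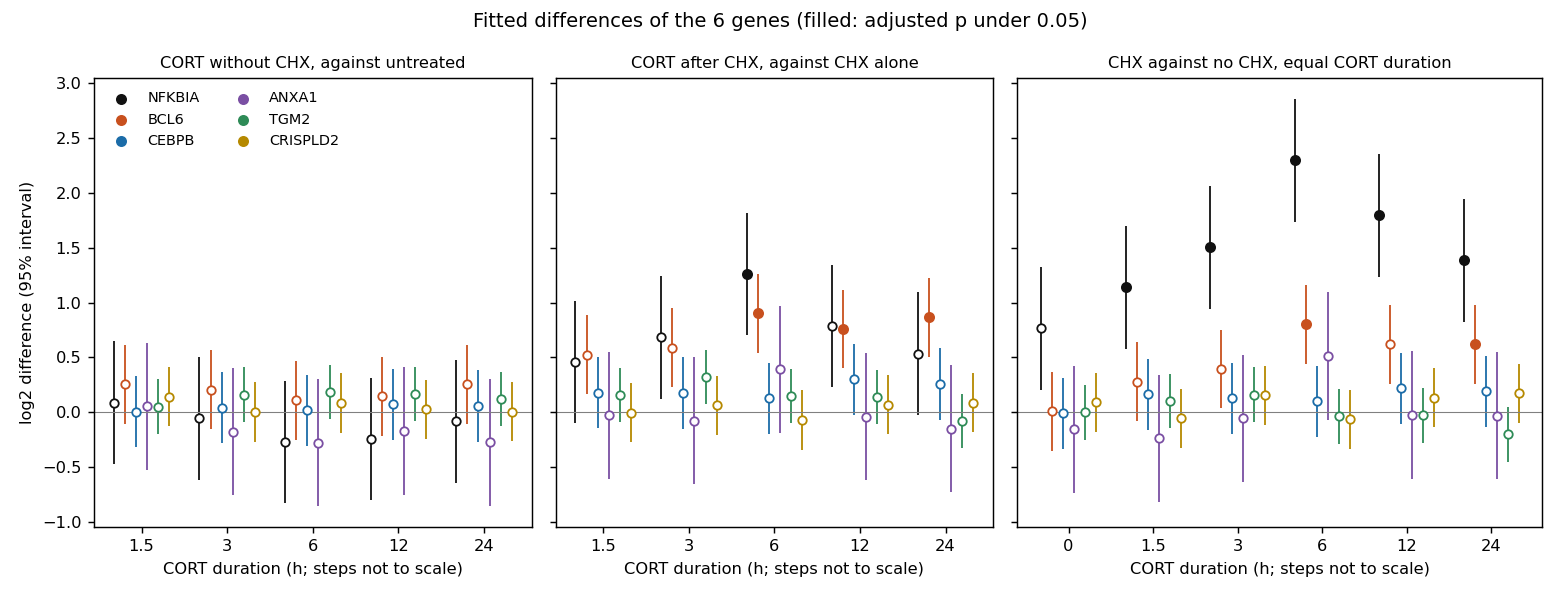
Fitted log2 differences of the 6 genes with 95% intervals (limma, n = 4 samples a group), by CORT duration in hours (steps not to scale): CORT against untreated, CORT after CHX against CHX alone, and CHX against no CHX at equal duration. Filled points passed an adjusted p under 0.05: none on the left, NFKBIA at 6 h and BCL6 at 6, 12 and 24 h in the middle, and NFKBIA at 1.5 to 24 h with BCL6 at 6 and 24 h on the right.

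Both BCL6 probes were higher after CHX with CORT, and to different extents. One probe gave 1.44 at 6 h (limma adjusted p = 0.00831) and 1.21 at 24 h (adjusted p = 0.0219) against CHX alone. The other gave 0.36 (adjusted p = 0.0709) and 0.53 (adjusted p = 0.00175) at the same durations. Fitted singly, 1.1% and 2.25% of probes were called at 6 and 24 h against CHX alone. At 12 h against CHX alone, the first probe gave 1.135 (limma adjusted p = 0.0518) and its groups overlapped. The other gave 0.38 there (adjusted p = 0.0475). At 24 h of CORT with CHX against without, the first gave 0.80 (adjusted p = 0.129) and the other 0.44 (adjusted p = 0.00752). In these comparisons only the other probe passed the threshold by itself. The 2 probes correlated at 0.86 over the 12 group means.

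**Figure D3:**
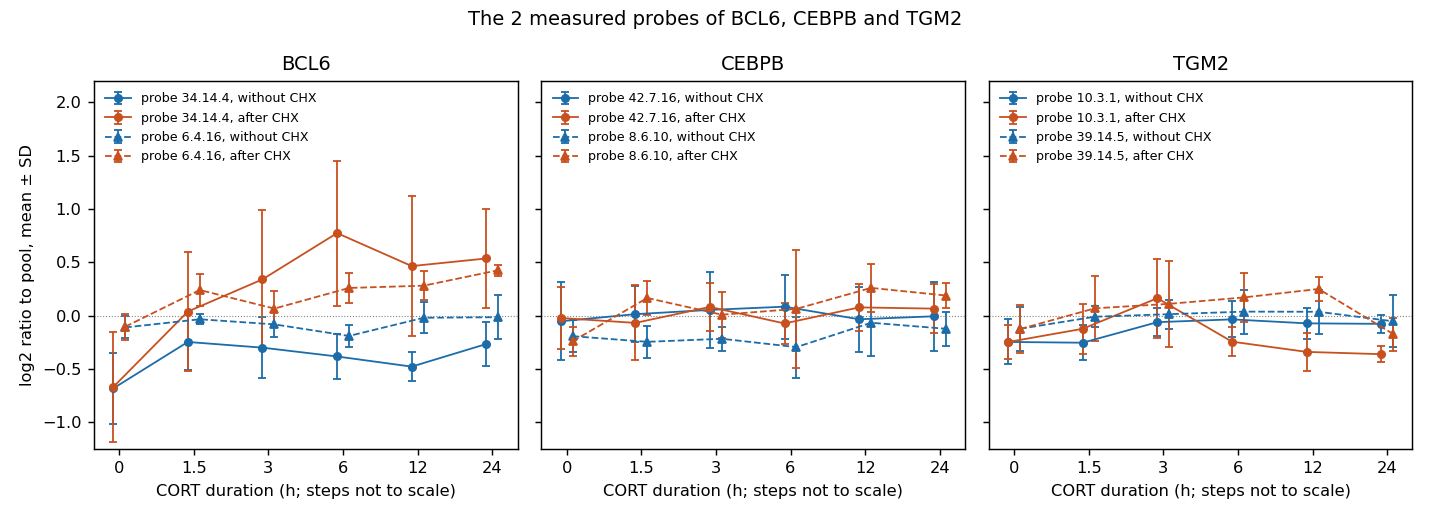
Log2 ratio to the pool (mean with bars of 1 SD, n = 4) of the 2 measured probes of BCL6, CEBPB and TGM2, by CORT duration in hours (steps not to scale), without CHX (blue) and after CHX (orange), with 1 line style for each probe. Over the 12 group means the 2 probes correlated at 0.86 for BCL6, 0.02 for CEBPB and 0.20 for TGM2.

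CEBPB encodes a basic leucine zipper factor of acute-phase and inflammatory transcription that is also induced by glucocorticoids in mammalian liver. Of its 3 probes, 1 had only exact zeros (19 values) and 2 were averaged. Its group means ran from -0.13 in CHX alone to 0.17 in CHX then CORT 12 h, a span of 0.30 against a median SD of 0.21. At 12 h after CHX the values were 0.14, 0.38, 0.20 and -0.05, and in CHX alone they were 0.16, -0.25, -0.14 and -0.29. These groups overlapped, and the difference of 0.30 (SE 0.16, 95% interval -0.03 to 0.63, limma adjusted p = 0.508) was not called. The 2 probes did not move together. One gave 0.41, 0.50 and 0.43 at 1.5, 12 and 24 h after CHX against CHX alone, each without overlap and with adjusted p of 1, 0.18 and 0.245. With probes averaged per gene, 0.429%, 2.38% and 2.72% of features lay wholly higher in these comparisons. The other probe showed no difference with an unadjusted p under 0.05 in any of the 16 pairwise comparisons. In the mean over the 6 groups of each arm, the first probe was 0.26 higher with CHX (adjusted p = 0.00523), where 19.4% of singly fitted probes were called, and the CEBPB average was not called (0.13, adjusted p = 0.163).

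ANXA1, a phospholipid-binding protein that limits leukocyte recruitment, had 1 probe. In untreated cells it stood at 0.76, 0.01, -0.05 and -0.25, a spread as wide as any difference between groups. The highest mean was 0.36 at 6 h after CHX, from 1.06, -0.07, 0.36 and 0.09, and CORT at 6 h without CHX gave 0.74, -0.30, -0.31 and -0.75. The difference between these 2 groups was 0.51 (SE 0.29, 95% interval -0.07 to 1.10, limma adjusted p = 0.446), and they overlapped. With the replicate number of the labels as a block, this was the one ANXA1 difference called (adjusted p = 0.0242), and with that number as a random block it was not (adjusted p = 0.0529). CORT without CHX gave 0.06, -0.18, -0.28, -0.17 and -0.27 from 1.5 to 24 h, none called.

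TGM2 encodes transglutaminase 2, an enzyme that cross-links proteins and that glucocorticoids induce in human macrophages. It had 2 probes. Its values in CHX alone were -0.42, -0.23, 0.02 and -0.12, and at 3 h after CHX they were -0.25, 0.38, 0.41 and 0.01, the highest group. That difference of 0.32 (SE 0.12) had a limma adjusted p of 0.611, and the groups overlapped. The lowest group was 24 h after CHX, at -0.22, -0.41, -0.15 and -0.29. It lay wholly below CORT 24 h, at -0.11, -0.10, 0.06 and -0.12, by 0.20, with an adjusted p of 0.426, in a comparison in which 10.4% of features did not overlap in either direction. Both probes had their lowest group mean at 24 h after CHX, at -0.36 and -0.17. The first of these gave the larger difference from CORT 24 h (-0.28, limma adjusted p = 0.269). The other lay wholly above CHX alone at 12 h after CHX (0.38, adjusted p = 0.328). With probes averaged per gene, 2.38% of features lay wholly higher in that comparison. The first probe had means of -0.34 at 12 h after CHX and -0.25 in CHX alone, so the 2 probes differed at that duration. CORT without CHX gave TGM2 differences of 0.05 to 0.19, none called.

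CRISPLD2 encodes a secreted protein of the CAP superfamily that is induced by glucocorticoids in human airway smooth muscle, where it lowers cytokine output. It had 1 probe, with the narrowest span of group means among the 6 genes. Group means ran from -0.09 in untreated cells to 0.09 in CHX then CORT 24 h, a span of 0.18 against a median SD of 0.17. Untreated samples stood at 0.18, -0.15, -0.34 and -0.04. The largest difference among the 16 comparisons, 0.17 at 24 h between CHX then CORT and CORT alone (SE 0.13, 95% interval -0.10 to 0.44, limma adjusted p = 0.57), was not called.

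**Figure D4:**
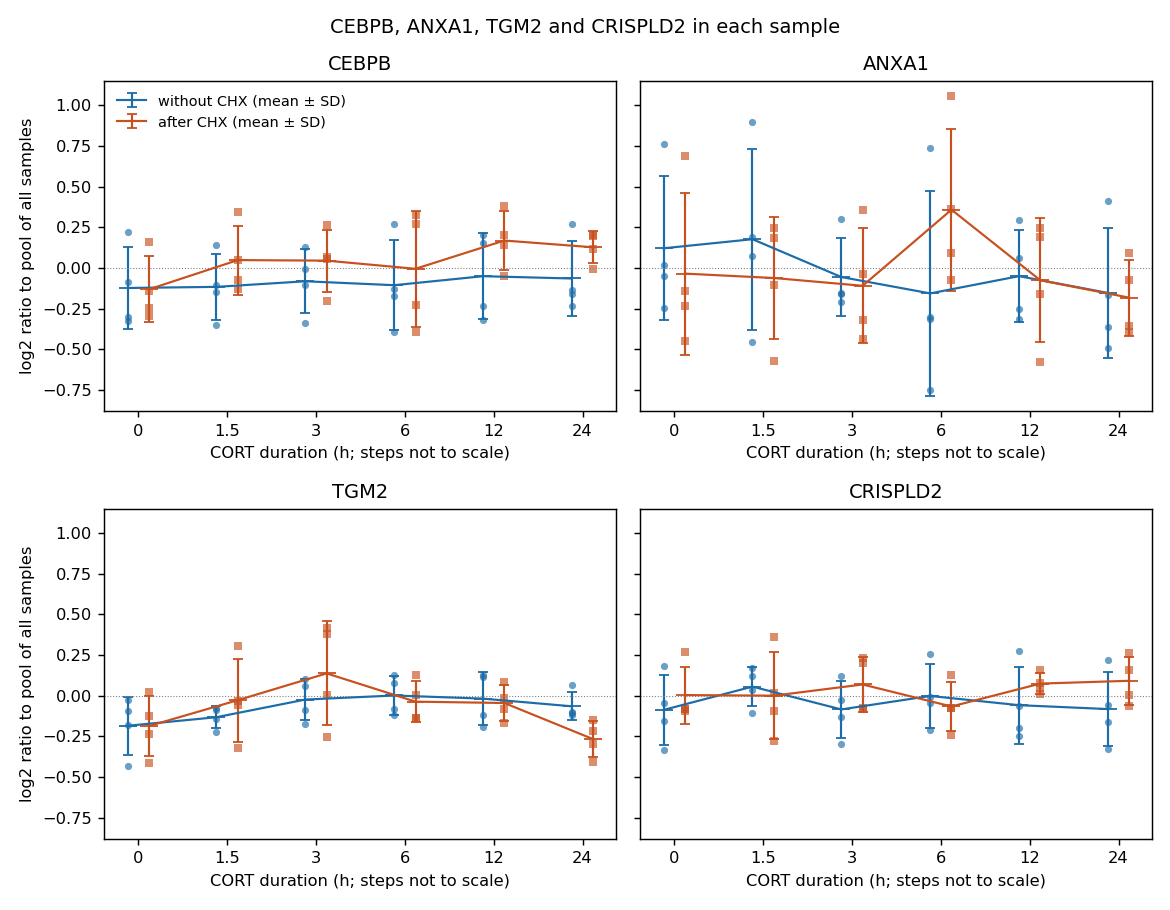
Log2 ratio to the pool of CEBPB, ANXA1, TGM2 and CRISPLD2 in each of 48 samples, by CORT duration in hours (steps not to scale), without CHX (blue circles) and after CHX (orange squares), with group means and bars of 1 SD (n = 4). Group means stay between -0.27 and 0.36, and at equal duration the samples of the 2 arms overlap except for TGM2 at 24 h.

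In the order of the 12 group means of each gene, 0 of 11 neighbouring pairs of groups lay apart in all samples, for all 6 genes. The spans from the lowest to the highest group mean were 2.30 for NFKBIA, 0.91 for BCL6, 0.54 for ANXA1, 0.40 for TGM2, 0.30 for CEBPB and 0.18 for CRISPLD2. The highest group was CHX then CORT 6 h for NFKBIA, BCL6 and ANXA1. As a set, the 6 genes had a median difference of 0.05 at 6 h of CORT against untreated, beside 0.01 over all features. After CHX at 6 h it was 0.27 against CHX alone, beside -0.0027 over all features. The 6 genes were chosen with earlier results of these data known, and this is the highest group of NFKBIA, BCL6 and ANXA1. These medians are therefore descriptions, and the set was not tested.

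Within groups, 5 of the 6 genes deviated with the replicate number of the labels, in different directions. ANXA1 and CRISPLD2 lay above the group mean in replicate 1 in 12 of 12 groups, by 0.51 and 0.22 on average, and CEBPB in 11 of 12, by 0.25. In replicate 4, CEBPB and ANXA1 lay below the group mean in all 12 groups, by 0.22 and 0.37 on average. TGM2 lay above the group mean in replicate 3 in 11 of 12 groups, by 0.15 on average, and in replicate 1 in 2 of 12. BCL6 lay above it in replicate 1 in 1 of 12, with a mean deviation of -0.18, and in replicate 3 in 9 of 12, by 0.15. NFKBIA was above it in 4 to 7 of 12 groups at each number. The deviations of CEBPB and ANXA1 from their group means correlated at 0.86 over 48 arrays, and CEBPB, ANXA1 and CRISPLD2 followed the main axis of within-group spread (r of -0.90 for CEBPB, -0.76 for ANXA1 and -0.83 for CRISPLD2), as 5.79%, 29.9% and 16.8% of features did at least as closely. NFKBIA was nearly free of that axis (r of 0.04) and BCL6 followed it weakly (0.36). Their deviations correlated with each other at 0.55 over the 48 arrays of both arms, a likeness carried by the CHX arm. At 3 h of CORT after CHX, for instance, NFKBIA deviated by -0.36, -0.24, 0.63 and -0.03. BCL6 deviated there by -0.28, -0.20, 0.52 and -0.05. At 3 h without CHX, NFKBIA deviated by 0.32, -0.39, -0.12 and 0.18 and BCL6 by -0.20, 0.19, 0.09 and -0.08. The groups without CHX went either way, and samples high in NFKBIA did not tend to be high in BCL6 over that arm. Arrays share the pool and the array surface in these correlations, which are given as descriptions.

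**Figure D5:**
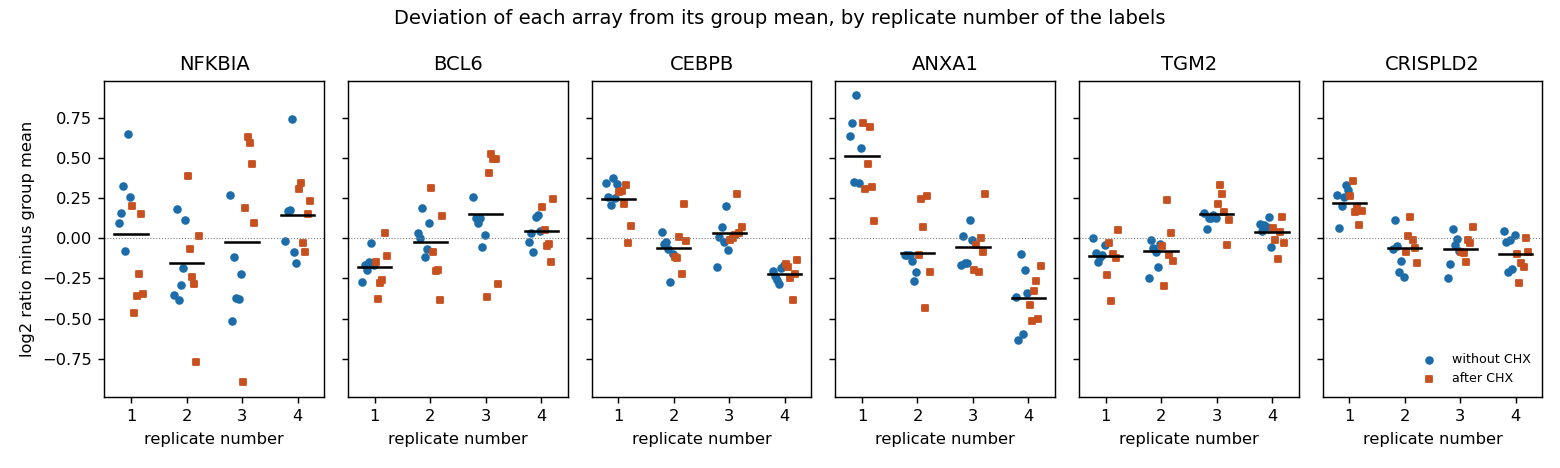
Deviation of each array from its group mean (log2 ratio, 1 point per array) for the 6 genes by the replicate number in the labels, with CHX in orange squares, without CHX in blue circles, and the mean of the 12 groups as a black bar. ANXA1, CEBPB and CRISPLD2 are high in replicate 1, with means of 0.51, 0.25 and 0.22, while BCL6 is low in replicate 1 (-0.18) and TGM2 high in replicate 3 (0.15).

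The genes whose 12 group means were most like a gene of the set were named by Pearson's r. For NFKBIA they were GATB (r = 0.98), NCKIPSD (0.97) and TTC7B (0.97), and for BCL6 they were WDTC1 (0.94), NBR1 (0.93) and TNPO1 (0.93). CEBPB was most like VAPB (0.95), SUPT4H1 (0.95) and NAGPA (0.95), and ANXA1 most like PTHLH (0.96), PSMC2 (0.90) and PTK2 (0.89). TGM2 was most like CDC123 (0.93), ADH6 (0.81) and SDHD (0.80), and CRISPLD2 most like SGTB (0.92), CYBRD1 (0.89) and DISP3 (0.89). Among the 6 genes, NFKBIA and BCL6 correlated at 0.86, BCL6 and CEBPB also at 0.86, and NFKBIA and CEBPB at 0.73. By Spearman's rank correlation these pairs gave 0.75, 0.84 and 0.57. CEBPB is here the average of 2 probes that correlated with each other at only 0.02 over these means. All these values share the same 12 groups and pool. Of the other named genes tested, 1.87% had an r over 0.9 with NFKBIA, 0.53% with BCL6 and 0.18% with CEBPB. The share was 0.02% with each of ANXA1, TGM2 and CRISPLD2. The genes named were picked as the highest among all of these, so a high r does not make them particular companions. For CEBPB and CRISPLD2 the group means spanned only 0.30 and 0.18, against median SDs of 0.21 and 0.17.

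Of 18 other NF-kB factors and regulators tested, none was called in any of the 16 pairwise comparisons, which called between 0% and 4.98% of all features. In the mean of the 6 groups of each arm 3 of the 18 were called, beside 20.1% of all features, so this count is near the background. CHUK, a kinase that phosphorylates IkB, was 0.36 higher with CHX (SE 0.08, limma adjusted p = 0.000554), while NFKB1, an NF-kB subunit, was lower by a difference of -0.37 (adjusted p = 0.0215) and MAP3K7, a kinase upstream, by -0.19 (adjusted p = 0.0371). Of 29 inflammatory ligands, receptors and enzymes, TLR3, a receptor for double-stranded RNA, was the one called pairwise, at 24 h of CORT with CHX against without (0.48, limma adjusted p = 0.0445). In the mean of the arms IL1B, a cytokine, differed by -0.45 (adjusted p = 0.0323) and CXCL12, a chemokine, by 0.23 (adjusted p = 0.000913). None of these 2 lists' genes was called between a CORT group and its 0 h group.

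Among the neighbours of BCL6, 11 partners and BTB zinc finger factors were tested. HDAC3, a corepressor deacetylase, was higher with CHX at 6 h (0.52, limma adjusted p = 0.0197) and 24 h (0.47, adjusted p = 0.0364) of CORT, and BCOR, a BCL6 corepressor, was lower at 24 h (-0.54, adjusted p = 0.0185). At equal CORT duration, 0.393%, 0.161%, 3.92%, 1.41% and 4.98% of all features were called from 1.5 to 24 h. None was called between a CORT group and its 0 h group. Of 3 C/EBP-related factors, ATF4 was higher with CHX at 1.5, 3, 6 and 24 h of CORT (0.86, 0.88, 1.18 and 0.66, adjusted p from 0.000166 to 0.0404). Of 5 other annexins, none was called pairwise. Of 8 transglutaminase and matrix genes, FN1, fibronectin, was lower at 24 h of CORT after CHX than in CHX alone (-0.84, adjusted p = 0.00991), where 2.3% of all features were called. The mean of the arms called 20.1% of all features. There the largest called differences of the BCL6 list went both ways, with ZBTB17 (-0.45) and BCOR (-0.28) lower and HDAC3 (0.37) and HDAC4 (0.31) higher. ATF4 (0.82), ANXA7 of the annexins (0.11) and F13A1 of the transglutaminase list (0.16) were called higher with CHX. CRISPLD1, a CAP-family relative of CRISPLD2, was lower by a difference of -0.20 (adjusted p = 0.0253).

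Of 13 other glucocorticoid-induced genes tested, RASL10A, a Ras-family GTPase, rose after CORT without CHX at 3, 6, 12 and 24 h (1.92, 2.40, 1.46 and 1.78, limma adjusted p from 2.07e-06 to 0.0423) and FKBP5 at 3 and 6 h (1.01 and 1.05, adjusted p of 0.0472 and 0.00968). The arm without CHX thus gave calls outside the 6 genes, 11 features at most, at 6 h. After CHX, FKBP5 at 3 to 24 h (1.05, 1.82, 1.42 and 1.26) and PDK4, a regulator of pyruvate dehydrogenase, at 1.5, 6 and 12 h (0.85, 0.99 and 0.81) were called against CHX alone, beside BCL6 and NFKBIA. SCNN1A was lower than CHX alone in the mean of the durations (-0.40, limma adjusted p = 0.0289). The rest of the 13 were not called against a 0 h group. At equal CORT duration, FKBP5 (0.76) and PDK4 (0.74) were called higher with CHX at 6 h, and RASL10A lower (-1.26). At 24 h, SLC19A3 (0.55) and SGK1 (0.45) were called higher with CHX and RASL10A lower (-1.30). Those comparisons called 3.92% and 4.98% of all features. FKBP5 is also the gene by which the sign of the ratio was read. The difference in response between genes was not tested.

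Some cell type markers moved with the CHX arm or at its last duration, beside NFKBIA and BCL6. The mean log2 ratio of 20 pituitary genes, among them POMC, GH, PRL, TSHB and POU1F1, ran from 0.09 to 0.15 without CHX and from -0.19 to 0.05 after CHX, lowest at 24 h. A ratio to a pool of the same cells gives no absolute level, so the labelled tissue could not be checked against these markers. In the mean of the arms, which called 20.1% of all features (1113 higher and 1134 lower with CHX), 7 of the 20 were lower and 1 higher, and TSHB (-0.92) and CHGA (-0.71) differed most. SCG3, a granin, was called lower than CHX alone at 12 h (-1.03) and 24 h (-1.57) after CHX, where 1.13% and 2.3% of all features were called. At equal CORT duration, TSHB was called lower with CHX at 12 h (-1.21). TSHB (-1.78), SCG3 (-1.63) and CHGA (-1.38) were called lower at 24 h. Those comparisons called 1.41% and 4.98% of all features. The 17 fibroblast and matrix genes stood between 0.01 and 0.12 without CHX and at -0.32 at 24 h after CHX, where ACTA2 (-0.74) and FN1 were called lower than in CHX alone. In the remaining CHX groups they stood between -0.04 and 0.03, so only the last duration was low. Of 12 genes of neurons and glia, TUBB3 (-2.19 at 24 h) and NEFL (-0.83 at 6 h and -0.86 at 12 h) were called lower with CHX at equal CORT duration. The 11 immune markers stayed between -0.08 and 0.07 with 0 called pairwise, and 0 of 11 endothelial and 0 of 4 red blood cell markers were called in any comparison. Of 40 ribosomal protein genes, 17 were lower with CHX in the mean of the arms and none higher, beside the same 20.1% of all features called. Of 8 genes of the glucocorticoid receptor and its chaperones, 1 was HSPA8, a heat shock cognate protein. It was called lower with CHX at 1.5, 6, 12 and 24 h of CORT (-2.33, -2.54, -2.06 and -1.88). DNAJA1, its co-chaperone, was called lower at 6 and 12 h (-0.97 and -1.06). In bulk samples, fewer cells of a type and less RNA per cell cannot be told apart, and the part of these shifts in the values of NFKBIA and BCL6 was not tested. Over the 12 group means, NFKBIA correlated at -0.76 with the mean of the pituitary list, -0.80 with that of neurons and glia and -0.79 with that of ribosomal proteins, and BCL6 at -0.79, -0.87 and -0.81. With the fibroblast and matrix list the values were -0.48 and -0.65, and with the immune list -0.59 and -0.37. The other lists went the other way, at 0.29 and 0.45 for endothelial and 0.12 and 0.20 for red blood cell markers. These are descriptions over 12 groups that share the pool and the 2 arms. At 6 h after CHX, where NFKBIA and BCL6 were highest, the pituitary list stood at 0.02 and that of neurons and glia at -0.25.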

How the data were processed

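RNA was amplified as antisense RNA before labelling, per the labels' protocols. The authors deposited log2 ratios of 19200 probes on 48 arrays. Background correction and normalisation are not given in the sources used here. Array medians of the deposited log2 ratios lay between -0.038 and 0.048 and array SDs between 0.301 and 0.324, so arrays had been brought to one centre and spread, and a shift of all genes at once would not show. The base was read from the values: of 739065 nonzero values, 637 matched, to 8 decimals, the log2 of a quotient of 2 whole numbers under 200, while 129 did so with log10 and 76 with the natural logarithm, so this reading rests on few values. No spot intensities were used, so signal over background is unknown and the number of arrays limits the precision.

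Of 10601 probes with 1 symbol, 10455 matched the RefSeq gene table (assembly GRCg7b), 146 kept the array's symbol, 8599 had none and 0 had several. Probes of a gene were averaged. A feature needed values on at least 3 of 4 arrays in every group, which left 11195 of 15027. Exact zeros, 2.34% of values, were taken as missing. The plan had been to keep them and to drop them as the alternative. This was turned round after the files were seen, because 1 probe each of BCL6 and CEBPB held zeros alone. Keeping them gives 6 calls instead of 7 at equal CORT duration and changes no other count of calls.

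The 12 group means were estimated together from all 48 arrays by lmFit and eBayes (limma 3.58.1, R 4.3.3; figures with matplotlib 3.10.9), with 36 residual degrees of freedom and two-sided tests adjusted by the Benjamini-Hochberg method within each comparison at 0.05. All p-values are limma's, and unadjusted ones are called p. The fits were tested on simulated data with noise drawn independently for each feature and array. Such data lack the axis of spread that these arrays share, so the fits were not tested under it. The means over the 6 groups of each arm were added after the design was fixed. Alternatives covered scaling, filters, zeros, probes fitted singly, a replicate block, array weights, the axis of spread as a covariate, fits of only the groups compared, and arrays left out.

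The members and all lists were chosen with earlier results of these data known. Named were the 6 genes, FKBP5 for the sign, the 3 most like genes of each, and up to 4 called genes per list and comparison with the largest differences. Equal replicate numbers were not taken as pairs, since 50 of 64 pairs of same-numbered arrays correlated above 0.1 and the rule asked for all. Sequences, promoters and coordinates were not analysed here.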

Additional observations from a re-analysis of the deposited data

Results flagged for a closer look

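In 5 of the 72 sets of 4 samples (6 genes in 12 groups), 1 sample stood far from the other three by Dixon's criterion at the 95% level, which chance alone meets in about 1 in 20. NFKBIA was low in replicate 3 of CORT 1.5 h, at -1.43, where the other samples stood between -0.75 and -0.73. NFKBIA was also low in replicate 3 of CHX alone, at -1.13, where the others stood between -0.03 and 0.16. That sample enters every comparison of CORT after CHX with CHX alone, and BCL6 was lowest in it as well, at -0.75. FKBP5 too was lowest there, at -1.74. ANXA1 was high in replicate 1 of CORT 3 h, at 0.3, and CRISPLD2 was high in replicate 1 of CHX alone, at 0.27, both in the number that was highest for these genes in nearly every group. TGM2 was high in replicate 3 of CORT 24 h, at 0.06.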

How the results depend on the processing

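Counts of calls were summed over the 6 genes and the comparisons of a kind, and recomputed in 62 settings. They were 0 for CORT without CHX, CHX alone, the mean of the durations without CHX and a response that differs after CHX, 4 for CORT after CHX, 7 for CHX at equal CORT duration, 1 for the mean of the durations after CHX and 1 for any change over time, and no called difference turned its sign. CORT after CHX gave 7 with the axis of spread as a covariate and 1 with only the groups compared, and 1 to 5 where arrays were left out. Equal CORT duration gave 4 with only the groups compared and 3 to 8 where arrays were left out. The mean of the durations after CHX gave 2 with the replicate block, the random replicate block or array weights, 3 with the axis covariate, 0 with only the groups compared and 0 to 2 where arrays were left out. Any change over time gave 3 with either replicate block, 2 with array weights or the axis covariate, 0 with only the groups compared and 0 to 2 where arrays were left out. The other 4 counts stayed at 0 where arrays were left out. Fits of only the groups compared hold fewer arrays to estimate the spread. They also take the spread from those groups alone, and for BCL6 that spread was wider in the CHX arm. The axis covariate leaves the differences of the 6 genes unchanged and acts only on the spread. For the rest the cause was not tested.

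The mean difference between the arms kept its call in all 62 settings for NFKBIA (1.35 to 1.62) and BCL6 (0.40 to 0.49). The replicate block added NFKBIA and TGM2 to any change over time (adjusted p = 0.0346 and 0.0426), NFKBIA to the mean after CHX (0.0342), BCL6 to 12 h at equal duration (0.0122) and ANXA1 to 6 h. Same-numbered arrays of different groups correlated at a median of 0.44 against -0.10 for different numbers, and 39 of 48 arrays correlated best with their own number, a hint from the data and not from the design. With the axis covariate, CEBPB was called at 12 h (adjusted p = 0.0136) and 24 h (adjusted p = 0.029) after CHX. The axis was taken from deviations from group means, so these differences stayed at 0.30 and 0.26 and only the spread shrank. The covariate thus does not adjust for differences between groups along the axis. Mean axis scores were 5.6 in CHX alone, -4.1 at 12 h and -7.0 at 24 h after CHX. Their part in CEBPB was not tested. Further calls were lost when a replicate number was left out of all groups. Without replicate 3, BCL6 at 6 h after CHX was not called (0.62, adjusted p = 0.0882). Without replicate 4, BCL6 at 24 h after CHX (0.85, adjusted p = 0.0952) and NFKBIA at 24 h at equal duration (1.26, adjusted p = 0.0629) were not called. The call of BCL6 for any change over time after CHX was lost in 5 of 62 settings. NFKBIA at 3 h at equal duration was lost in 6, and BCL6 at 12 h after CHX in 8. Not every such setting is named here. Array weights, or leaving out replicate 2 of CHX then CORT 12 h, added NFKBIA at 12 h after CHX (1.01 and 1.04).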
